A study of Mus musculus with 6 samples.

Results

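Transcript levels of the brush border peptidases and hydrolases were compared between proximal tubules of Clcn5 knockout mice and of wild type mice. The group was set by name as 9 genes: Mep1a, Mep1b, Anpep, Enpep, Mme, Ace, Dpp4, Ggt1 and Treh. Every probe set (a set of short probes that reads 1 transcript) annotated with 1 of these symbols and no other was taken, which gave 14 probe sets of 8 genes among 45037 probe sets and 18193 named genes on the array. No probe set in the annotation used here carried the symbol Ggt1, the gene of gamma-glutamyl transferase, so this gene was not analysed here. Of the 14 probe sets, 13 passed the filter on dim signals, a geometric mean signal of at least 41.9 over all arrays, and all 8 measured genes had at least 1 of them. No measured value was used to choose the genes, but the group was drawn up with earlier results of these arrays known.

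The brush border is the dense carpet of microvilli on the side of the proximal tubule cell that faces the filtered fluid. Its surface carries enzymes that cut filtered peptides, and the amino acids and short peptides they release are taken up by carriers in the same membrane. The same enzymes make and break peptide hormones such as the angiotensins and kinins, and several of them serve as markers of the proximal tubule. Clcn5 encodes ClC-5, a chloride and proton exchanger of the endosomes that lie below this membrane and through which its proteins are recycled.

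The study used 6 Affymetrix arrays, 3 hybridised with RNA of Clcn5 knockout tubules and 3 with RNA of wild type tubules. Segments of 2 mm, 80 to 100 per kidney, had been dissected from the left kidney after perfusion with ice-cold salt solution, and each array carried the pooled RNA of several mice. The labels give 3 to 4 mice per pool and the scanner records give 7. The genotypes are named only as Clcn5 knockout and wild type, and the part of the gene that was disrupted, the strain, the sex and the age are not given in the sources used here. Since the records name the 3 arrays of a genotype as biological replicates, the p-values measure the spread between pools of RNA from whole dissected segments, in which fewer cells of a type and less RNA per cell cannot be told apart.

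All 4 probe sets of Clcn5 were lower on every knockout array, by 2.83-fold to 7.31-fold. Pearson's r of the log2 signals over all probe sets was 0.939 to 0.954 between arrays of a group. Knockout array 3 has another solution lot in its record than the other arrays, and the use of that solution is not stated. It had the highest median signal, 48.8 against 40.9 to 45.3 on the other arrays. For the proximal tubule itself, all 10 listed markers of its S1 and S2 segments and all 10 of its S3 segment passed the filter. Markers of other cells passed it as well: the 5 listed markers of the thick ascending limb and 9 of 12 leukocyte markers. Since 11620 of the 18193 named genes passed this filter, passing it does not by itself show that a transcript was present.

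Of the 8 measured genes, 3 rose in the knockout tubules and 1 fell at an adjusted p under 0.05 by limma, where 6.48% of the 11620 genes tested were called, 3.24% higher and 3.24% lower. Mep1b was 2.62-fold higher, Enpep 1.51-fold higher and Treh 1.34-fold higher, while Dpp4 was 1.56-fold lower. Mep1a, Anpep, Mme and Ace did not pass the threshold. The median log2 change of the 8 genes was 0.18, with 5 above 0 and 3 below it, beside a median of 0.01 over all tested genes. The knockout and wild type arrays did not overlap in the 4 called genes, whereas 25.2% of the 11620 genes were free of overlap, 13.6% higher and 11.6% lower. Counted by probe set, 3 of 13 rose and 1 fell, where 4.76% of the 22519 tested probe sets were called, 2.29% higher and 2.46% lower. Groups that did not overlap were found in 6 of the 13, 3 higher and 3 lower, where 23.2% of tested probe sets had them, 12% higher and 11.2% lower.

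The RefSeq promoter table (GRCm38.p6) held 14 start sites of 8 of the 9 genes. It held none of Mep1b, so the promoter of this called gene was not examined. The 250 bases before the annotated start are shown for Enpep and Treh, which rose, and for Dpp4, which fell, so that the genes that moved in opposite directions can be read side by side. Capitals mark matches, on either strand, to TATAAA (the TATA box) or to CAAAGTCC (a core of sites bound by HNF4 receptors, which drive proximal tubule genes). The sequences run 5′ to 3′ on the strand of the gene. The positions are chr3:129332750-129332999 on the minus strand for Enpep, chr9:44672983-44673232 on the plus strand for Treh and chr2:62412232-62412481 on the minus strand for Dpp4.
Enpep: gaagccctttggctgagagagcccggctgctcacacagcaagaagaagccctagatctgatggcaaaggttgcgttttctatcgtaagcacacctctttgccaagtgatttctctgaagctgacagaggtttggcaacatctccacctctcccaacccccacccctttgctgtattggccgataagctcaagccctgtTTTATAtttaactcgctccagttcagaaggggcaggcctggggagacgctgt
Treh: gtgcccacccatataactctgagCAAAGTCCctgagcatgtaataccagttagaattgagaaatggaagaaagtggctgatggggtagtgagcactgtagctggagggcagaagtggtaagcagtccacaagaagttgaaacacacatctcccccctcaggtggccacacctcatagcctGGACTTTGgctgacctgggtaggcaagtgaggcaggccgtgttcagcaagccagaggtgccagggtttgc
Dpp4: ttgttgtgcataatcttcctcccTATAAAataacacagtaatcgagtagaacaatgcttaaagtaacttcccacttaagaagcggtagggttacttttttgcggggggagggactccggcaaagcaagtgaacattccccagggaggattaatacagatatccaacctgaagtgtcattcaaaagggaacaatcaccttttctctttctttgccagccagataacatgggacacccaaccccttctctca

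The Treh window held the letters CAAAGTCC on both strands, 220 to 227 bases and 63 to 70 bases before the start, and 1.20% of the 32851 windows of the same length in the table held them at least once. Neither the Enpep nor the Dpp4 window held them, while 1 window of Ace, which did not pass the threshold, held them on the opposite strand 97 to 104 bases before the start, and 1 window of Ggt1 188 to 195 bases before it. TATAAA lay on the opposite strand of the Enpep window 47 to 52 bases before the start and on the gene's strand of the Dpp4 window 222 to 227 bases before it, and 12.4% of all windows held it. The letters GTTAAT (a half-site of HNF1), TTGCGC (a half-site of C/EBP factors) and GGGCGG (the GC box) were in none of the 3 windows, and 6.43%, 5.34% and 32.7% of all windows held them. The 5 motifs do not overlap in these windows. These are matches of letters and no measurement of binding.

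**Figure D1:**
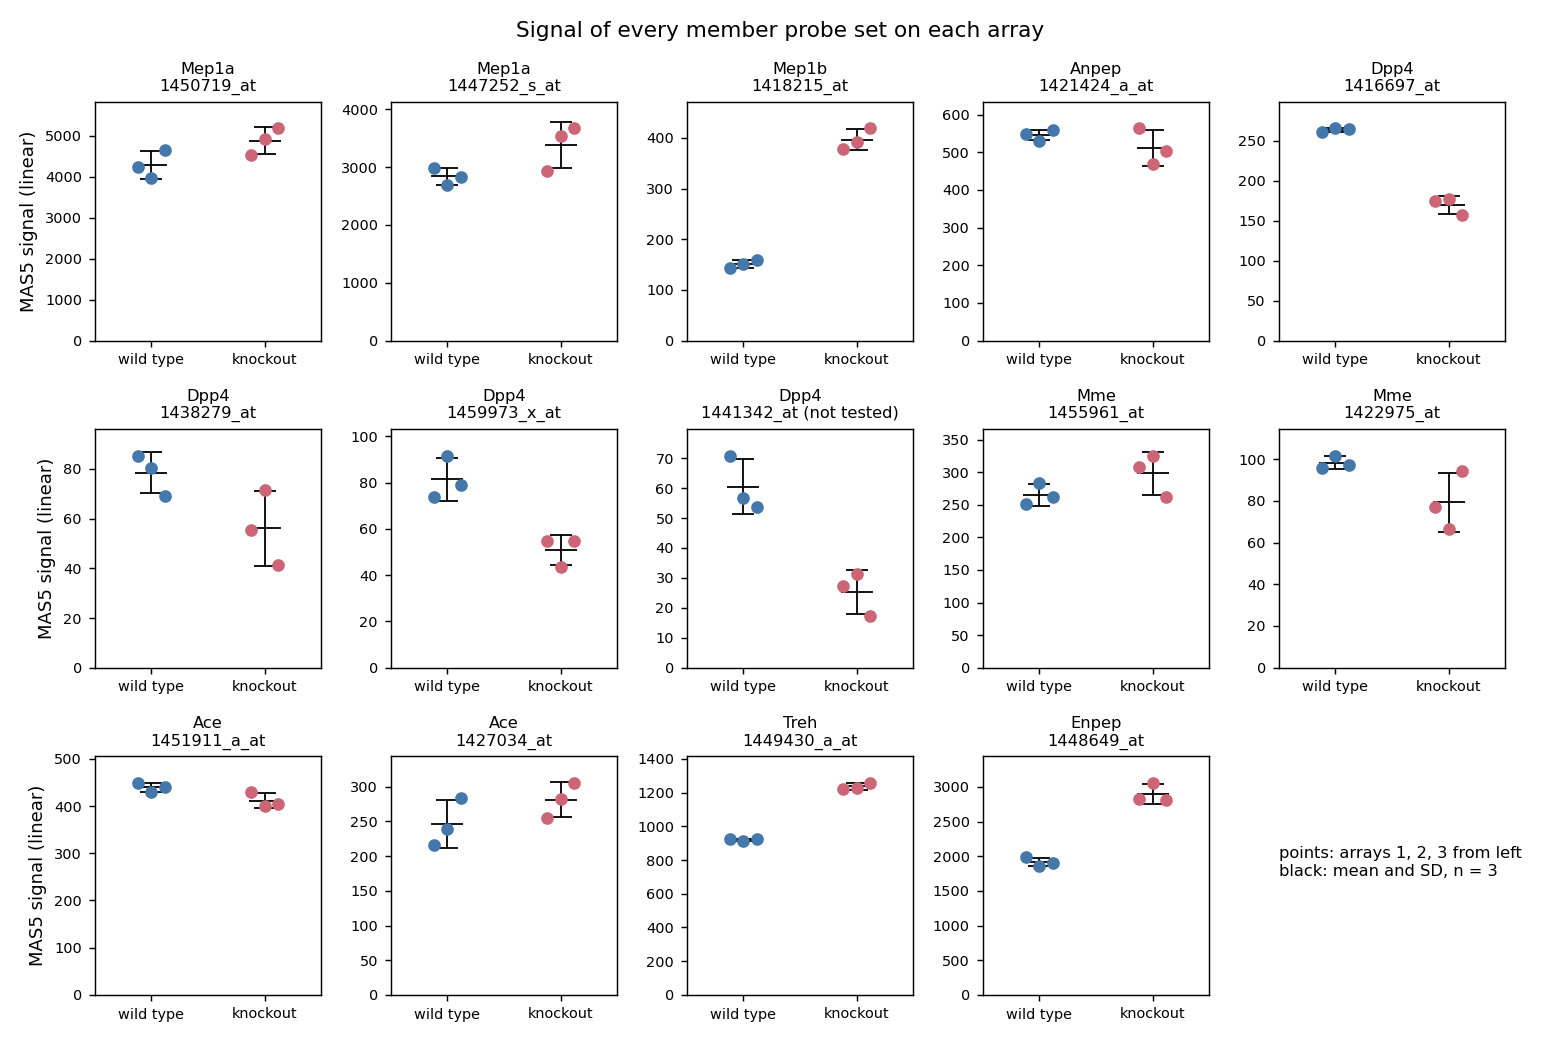
MAS5 signal on a linear scale of each of the 14 probe sets on 3 wild type and 3 knockout arrays, with the mean and SD (n = 3) in black. The groups of Mep1b, Enpep and Treh stand apart with knockout higher, those of Dpp4 probe set 1416697_at with knockout lower, and those of Anpep overlap.

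The meprins are zinc peptidases of the astacin family that are built from an alpha subunit, encoded by Mep1a, and a beta subunit, encoded by Mep1b, which holds the complex in the membrane. Mep1b, read by probe set 1418215_at, had signals of 144, 150.2 and 159 on the wild type arrays and of 379, 392 and 419 on the knockout arrays. The plot of signals by array shows the knockout arrays far above the wild type arrays, with no overlap. The means were 396 ± 20.5 (SD, n = 3) in knockout and 151 ± 7.97 (SD, n = 3) in wild type, a log2 change of 1.39 (SE 0.09, 95% interval 1.20 to 1.58, limma adjusted p = 6.73e-06). By p-value Mep1b ranked 19th of the 11620 tested genes.

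Mep1a differed less. Its probe set 1450719_at gave 4227, 3965 and 4653 in wild type and 4535, 4914 and 5177 in knockout. The lowest knockout array lay below the highest wild type array, so the groups overlapped. The log2 change was 0.19 (95% interval 0.01 to 0.37, limma adjusted p = 0.233). The second probe set of Mep1a, 1447252_s_at, was at 0.25 (adjusted p = 0.189 over all 22519 tested probe sets). It passed only without knockout array 1, its lowest knockout array (log2 change 0.35, adjusted p = 0.0397).

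The difference between the subunits was examined within each array, a comparison chosen after the values were seen. The log2 ratio of the Mep1b signal to the Mep1a signal was −3.62 ± 0.03 (SD, n = 3) in knockout and −4.82 ± 0.09 (SD, n = 3) in wild type, a difference of 1.20. All 3 knockout ratios lay above all 3 wild type ratios. The two-sided exact permutation p was 0.10, which is the smallest that 3 arrays against 3 allow, and it was also 0.10 after adjustment over the 2 pairs compared. The pair sets a called gene beside 1 that did not pass, so this p adds no support to the change of Mep1b. The ratio shows unequal change of the signals, not the proportion of the subunits.

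Enpep and Anpep encode the zinc aminopeptidases A and N. Aminopeptidase A removes acidic residues from the front of peptides and turns angiotensin II into angiotensin III, and aminopeptidase N removes neutral ones. Enpep, read by probe set 1448649_at, had signals of 1982, 1861 and 1902 in wild type and of 2821, 3061 and 2807 in knockout. Even the lowest knockout array stood far above the highest wild type array. The log2 change was 0.60 (SE 0.06, 95% interval 0.45 to 0.74, limma adjusted p = 0.000227), from a mean of 1915 ± 61.8 (SD, n = 3) to 2896 ± 143 (SD, n = 3).

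Anpep had signals of 548, 531 and 559 in wild type and of 563, 470 and 503 in knockout. Knockout array 1 gave the highest value of all 6 and knockout array 2 the lowest, so the groups overlapped. Its log2 change was −0.10 (95% interval −0.27 to 0.08, limma adjusted p = 0.574). Within arrays the log2 ratio of Enpep to Anpep was 2.50 ± 0.19 (SD, n = 3) in knockout and 1.81 ± 0.04 (SD, n = 3) in wild type. The difference was 0.69 and the groups did not overlap (two-sided exact permutation p = 0.10, the smallest possible, and 0.10 after adjustment over the 2 pairs). This pair was also chosen after the values were seen, and it sets a called gene beside 1 that did not pass. Its p therefore adds no support to the change of Enpep.

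Mme and Ace encode further zinc peptidases that act on vasoactive peptides. Neprilysin, the product of Mme, cuts many small peptides, among them natriuretic peptides, and the angiotensin-converting enzyme, the product of Ace, makes angiotensin II and breaks down bradykinin. Neither passed the threshold, and for each of them the 2 probe sets had changes of opposite sign. Mme probe set 1455961_at gave 251, 284 and 261 in wild type and 309, 326 and 262 in knockout, a log2 change of 0.17 (95% interval −0.05 to 0.39, limma adjusted p = 0.41). The knockout range took in 1 of the wild type arrays. The dimmer Mme probe set 1422975_at gave 95.8, 102 and 97.2 in wild type and 77.0, 66.4 and 94.3 in knockout, and its groups did not overlap. Its log2 change was −0.32 (95% interval −0.69 to 0.04, limma adjusted p = 0.35).

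Ace probe set 1451911_a_at gave 449, 429.7 and 439.7 in wild type and 429.7, 401 and 404 in knockout. The highest knockout array stood just above the lowest wild type array. The log2 change was −0.10 (95% interval −0.25 to 0.05, limma adjusted p = 0.502). The other probe set of Ace, 1427034_at, was at 0.20 (95% interval −0.06 to 0.45, adjusted p = 0.438), with overlapping groups of 216 to 284 in wild type and 256 to 306 in knockout. With the probe sets of a gene averaged, the log2 change was 0.0498 for Ace and −0.0789 for Mme, opposite in sign to the values of their brighter probe sets.

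Dpp4 encodes dipeptidyl peptidase 4, a serine peptidase that removes dipeptides from the front of peptides after proline or alanine, and it was the only measured gene of the group that fell at the threshold. Its brightest probe set, 1416697_at, gave 261, 266 and 264 in wild type and 174, 177 and 157 in knockout. The wild type arrays lay close together and all knockout arrays lay well below them. The log2 change was −0.64 (SE 0.09, 95% interval −0.84 to −0.44, limma adjusted p = 0.00142), from a mean of 264 ± 2.67 (SD, n = 3) to 170 ± 10.7 (SD, n = 3).

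The other 3 probe sets of Dpp4 were dimmer and all had lower means in knockout. Probe set 1459973_x_at gave 73.8, 91.8 and 78.9 in wild type and 54.8, 43.6 and 54.6 in knockout, without overlap (log2 change −0.68, adjusted p = 0.0713 over all tested probe sets). Probe set 1438279_at was at −0.51 (adjusted p = 0.267), and knockout array 2, at 71.5, exceeded wild type array 3, at 69.3. Probe set 1441342_at missed the filter with a geometric mean signal of 38.3; it gave 70.9, 56.7 and 53.7 in wild type and 27.2, 31.4 and 17.2 in knockout. Tested on all 6 arrays with no filter, it did not pass (log2 change −1.29, adjusted p = 0.0672).

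Treh encodes trehalase, which splits the sugar trehalose into glucose and is the only member that acts on a sugar. Its probe set 1449430_a_at gave 924, 914 and 925 in wild type and 1222, 1230.1 and 1259 in knockout. It had the smallest spread of the 14 probe sets in both groups, with coefficients of variation of 0.691% in wild type and 1.56% in knockout. The log2 change was 0.43 (SE 0.06, 95% interval 0.30 to 0.55, limma adjusted p = 0.000921), from a mean of 921 ± 6.37 (SD, n = 3) to 1237 ± 19.3 (SD, n = 3). The call ended when each array was centred on its median signal (log2 change 0.44, adjusted p = 0.0651), a setting under which 397 genes in place of 753 passed.

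**Figure D2:**
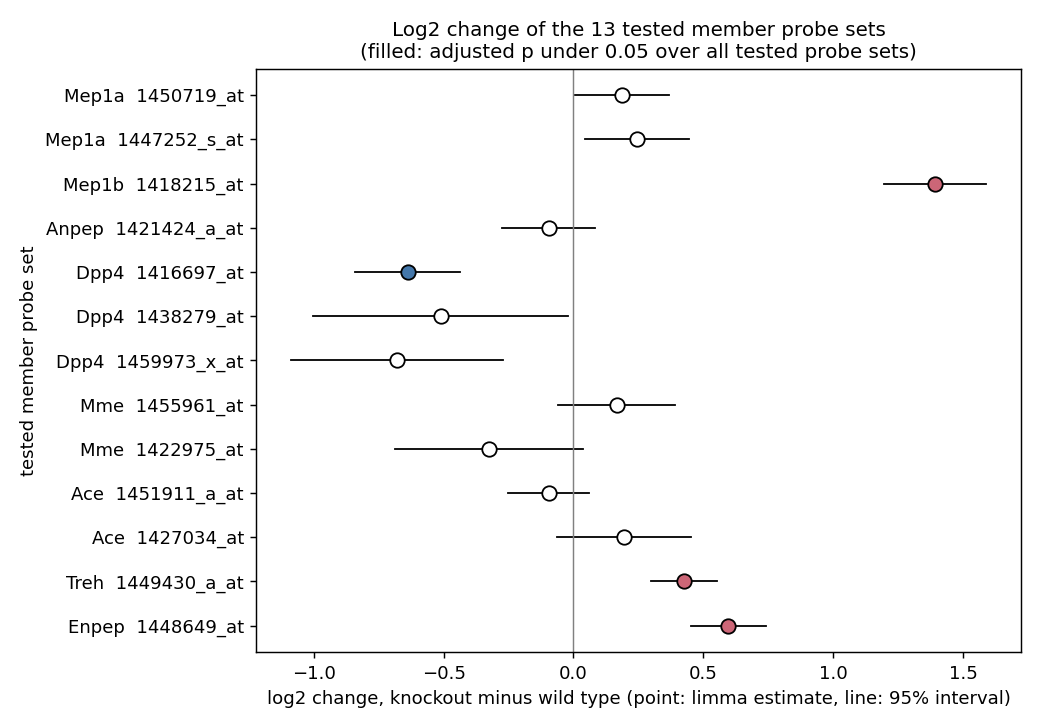
Log2 change (knockout minus wild type) of the 13 tested probe sets with 95% intervals from limma, filled where the adjusted p over all 22519 tested probe sets is under 0.05. The intervals of Mep1b, Enpep, Treh and both Mep1a probe sets lie above 0 and those of all 3 Dpp4 probe sets below it, though neither Mep1a probe set and only 1 of Dpp4 is filled, while the probe sets of Mme and of Ace lie on both sides.

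The spread among arrays of a group differed between the genes. In the probe sets that represent the 8 genes, the coefficient of variation ran from 0.691% (Treh) to 8.11% (Mep1a) in wild type and from 1.56% (Treh) to 11.1% (Mme) in knockout. The dim probe sets 1438279_at and 1441342_at of Dpp4 were the most variable in knockout, at 26.8% and 28.8%.

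The 4 called genes kept their direction and call without any 1 array. The log2 change was then 1.35 to 1.43 for Mep1b, 0.56 to 0.62 for Enpep, 0.41 to 0.43 for Treh and −0.67 to −0.58 for Dpp4. Both groups were washed on each of 2 fluidics stations, with 2 arrays per group on station 1 and 1 per group on station 2. The log2 difference of Mep1b was 1.35 on station 1 and 1.48 on station 2, that of Enpep 0.60 and 0.59, that of Treh 0.41 and 0.46, and that of Dpp4 −0.58 and −0.76. Mme turned from 0.31 on station 1 to −0.12 on station 2.

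**Figure D3:**
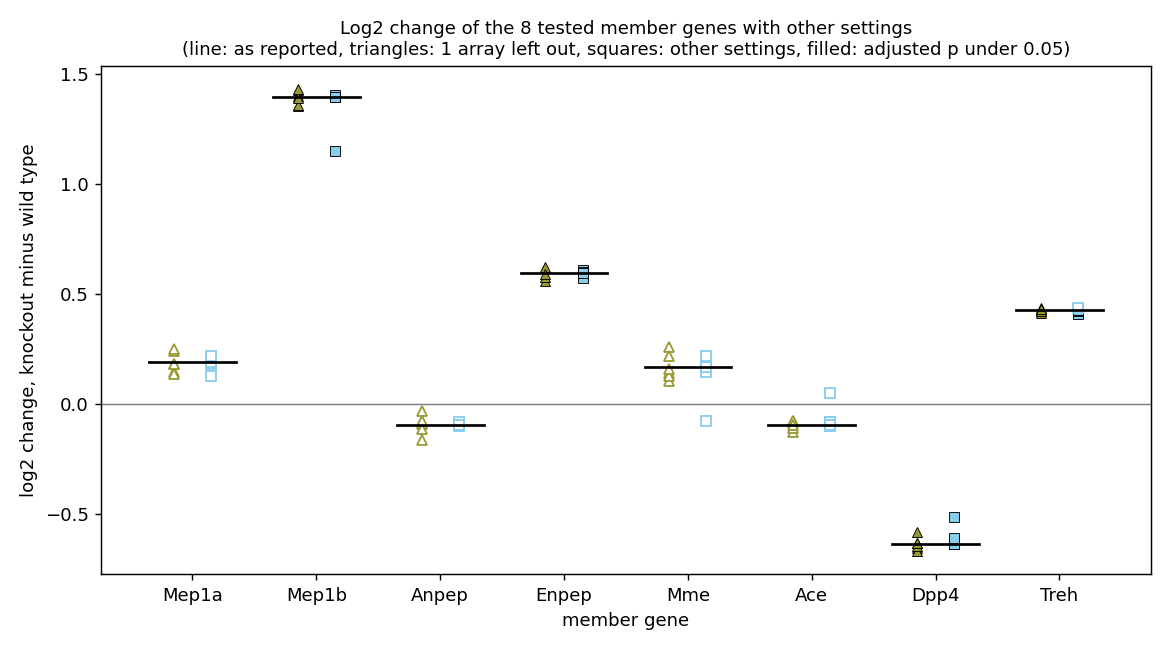
Log2 change of the 8 tested genes as reported (line), with each of the 6 arrays left out (triangles) and with 10 other settings (squares), filled where the adjusted p is under 0.05. Mep1b, Enpep and Dpp4 are filled throughout and Treh is open in 1 setting, while 1 square of Mme and 1 of Ace cross 0.

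By Pearson's r of the log2 signal over the 6 arrays, given as a description since all of these genes share the difference between the groups, the genes most like Mep1b were Tmem267 (0.998), Treh (0.998) and Zfp36 (0.998). Those most like Enpep were Zbtb16 (0.999), Plet1 (0.997) and Atp10d (0.997). For Treh they were Tm6sf2, Depdc1b and Tmem254a, and for Dpp4 Cyp2d12, H2aw and Spc25, all with r of at least 0.998.

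Other enzymes of the tubule surface moved in both directions. Of 13 tested, 1 rose and 2 fell, with a median log2 change of −0.08. Nt5e, whose product makes adenosine from AMP at the cell surface, was 2.43-fold higher (670 ± 39.2 against 276 ± 28.9, SD, n = 3). That is a log2 change of 1.28, and its other tested probe set had a larger log2 change of 2.50. Xpnpep2, which encodes the membrane-bound aminopeptidase P, fell by 0.89 on the log2 scale (limma adjusted p = 0.00422). Alpl, the tissue-nonspecific alkaline phosphatase, fell by 0.38 (limma adjusted p = 0.0134), but not when knockout array 2 or either of wild type arrays 1 and 3 was left out, nor with median centring or without an intensity trend (adjusted p up to 0.202 over all settings). Dpep1, the dipeptidase that acts after gamma-glutamyl transferase in the breakdown of glutathione, was at −0.10 (95% interval −0.24 to 0.05), and Cltrn, of collectrin, a partner of amino acid carriers in this membrane, at −0.06; both were singled out after their values were seen.

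Of 14 tested relatives of the members, by sequence or by enzyme name, none rose by limma and 2 fell, with a median of −0.07. At an unadjusted p under 0.05, which 19.4% of all tested genes had in either direction, 1 was higher. The 2 that fell passed the adjusted threshold. These 2 were Dpp7, of a dipeptidyl peptidase inside vesicles, at −0.50 (limma adjusted p = 0.00142), and Rnpepl1, a relative of the aminopeptidases, at −0.37 (0.00721). The call of Dpp7 ended with median centring (adjusted p = 0.0564), and that of Rnpepl1 with median centring or without an intensity trend (up to 0.189 over all settings), and the other tested probe sets of Dpp7 were at −0.50 and −0.17. None of the 10 tested renin-angiotensin genes outside the group passed limma's threshold. An unadjusted p under 0.05, which 19.4% of all 11620 tested genes had, was found for 3: Prcp, Agtrap and Nln, at −0.31, −0.34 and −0.25. The receptor gene Agtr1a was at 0.12 (95% interval −0.01 to 0.25) and the precursor gene Agt at −0.45 (95% interval −1.07 to 0.17).

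Of 16 tested genes of the gamma-glutamyl cycle and of peptide breakdown inside the cell, 2 rose and 2 fell, with a median of 0.01. Ggct, which releases amino acids from gamma-glutamyl dipeptides, rose 1.59-fold, and Lap3, a cytosolic leucine aminopeptidase, 1.24-fold. Chac1, which breaks down glutathione inside the cell, fell by 0.84 on the log2 scale, and Gclc, of the first enzyme of glutathione synthesis, by 0.43. The calls of Lap3 and Gclc ended with median centring or without an intensity trend in the variances (adjusted p up to 0.234 and 0.156).

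Of 14 tested apical carriers of amino acids, peptides and glucose, 1 rose and 1 fell, with a median of −0.02. Slc6a19, the carrier of neutral amino acids, fell by 0.51 on the log2 scale, with its other tested probe set at −0.50. Slc6a18, a related carrier, was 1.20-fold higher, but leaving out any 1 array other than knockout array 2 ended its call (adjusted p up to 0.345 over all settings). Of 17 tested microvillus scaffold genes, none rose by limma (1 was higher at an unadjusted p under 0.05, against 19.4% of all tested genes in either direction). With a median of −0.04, 1 fell. It was Prom1, of the microvillus membrane protein prominin, at −0.47 (limma adjusted p = 0.000886). Of 6 tested transcription factor genes listed for the proximal tubule, with Wt1, also listed here as a podocyte marker, among them, 2 fell: Cebpa, at −0.57, and Maf, at −0.35. Maf was no longer called with knockout array 1 or 3, or wild type array 2 or 3, left out, nor with averaged probe sets, median centring or no intensity trend (adjusted p up to 0.276 over all settings), and its other probe sets ran from −0.52 to 0.04.

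**Figure D4:**
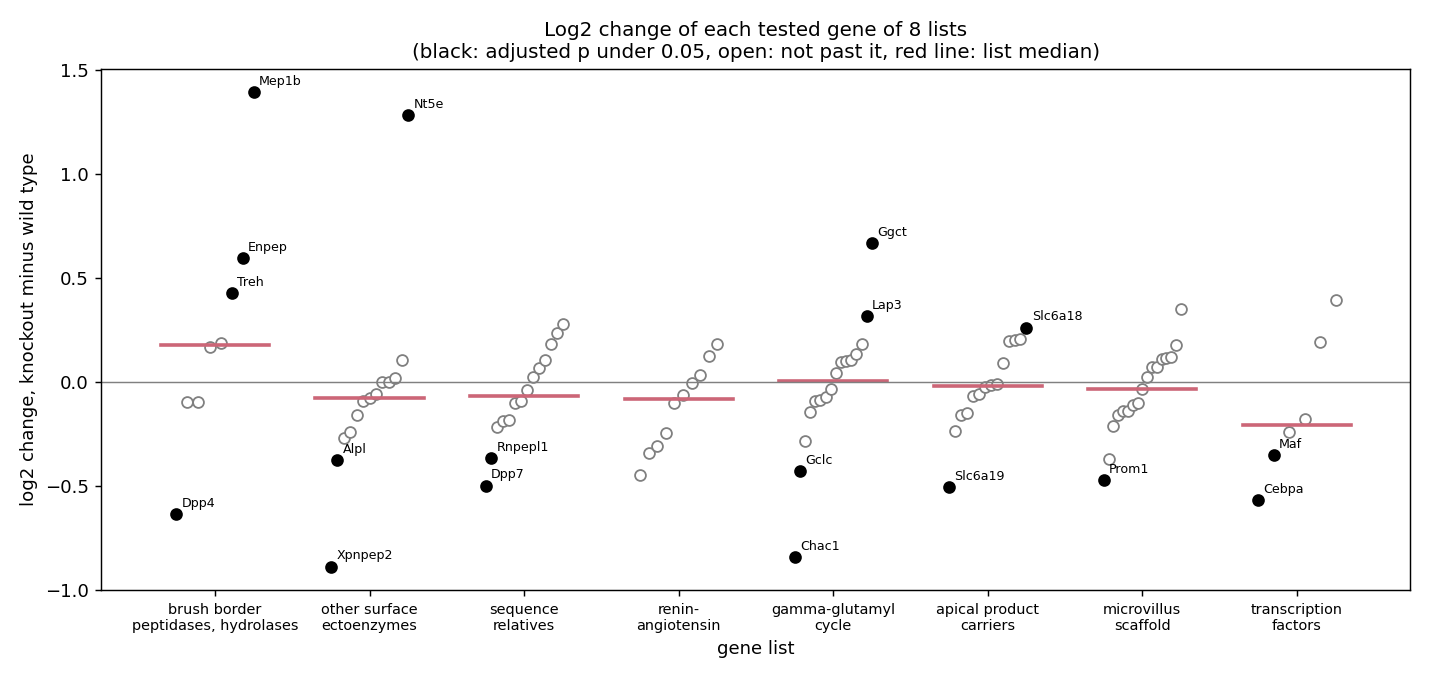
Log2 change (knockout minus wild type) of each tested gene in 8 lists, black and named where the adjusted p is under 0.05, with the list median in red. The brush border peptidases and hydrolases have 3 black points above 0 and 1 below, and the medians of the other 7 lists lie between −0.21 and 0.01.

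Markers of other cells moved on the same arrays, and some members are also made there: leukocytes carry Dpp4, Anpep and Mme, and podocytes Mme and Enpep. All 9 tested leukocyte markers were above 0, 2 of which rose (Cd74 by 0.73 and Csf1r by 0.58 on the log2 scale), with a median of 0.39 and a summed signal of 2881 to 3046 in knockout against 2051 to 2056 in wild type. All 6 tested podocyte markers were above 0, 2 of which rose (Synpo by 0.73 and Nphs1 by 0.64), with a median of 0.41 and a summed signal of 1446 to 1682 against 1138 to 1179. The call of Synpo held in every setting run, while Nphs1 was not called when knockout array 2, wild type array 1 or wild type array 3 was removed. All deposited signals, of markers and of other genes alike, were above 0, which does not show that a transcript was present. Of the 12 leukocyte markers, Cd3e, Cd79a and Itgam were too dim for the filter.

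Among tubule segments, 8 of 10 S1 and S2 markers were below 0 and 1 of them, Slc6a19, fell by 0.51, with a median of −0.08 and a summed signal of 32872 to 34855 in knockout against 33609 to 37372 in wild type. Of 10 S3 markers 6 were above 0 and 1, Slc7a13, rose by 0.37, with a median of 0.08 and a summed signal of 16721 to 18236 against 15526 to 16433. In the thick ascending limb 4 of 5 markers were above 0 and 2 rose, Umod by 0.41 and Slc12a1 by 0.27 (summed signal 9977 to 10719 against 8031 to 8350), and in the distal convoluted and connecting tubule 3 of 4 were above 0 and all 3 rose, Calb1 by 0.44, Pvalb by 0.46 and Trpm6 by 0.39 (8476 to 8980 against 6881 to 7919). Among these, Slc12a1 kept its call only without knockout array 3 when 1 array was left out, and Trpm6 only without knockout array 2. The call of Trpm6 also ended with its probe sets averaged, its other probe set being at 0.07. The other probe sets of Calb1 were at 0.77 to 1.23. With median centring the calls of Slc7a13, Umod and Calb1 also ended (adjusted p = 0.142, 0.0966 and 0.0991), as did those of Slc12a1, Trpm6, Slc26a4 and Aqp2 (adjusted p up to 0.407 over all settings). Collecting duct markers were mixed, with Slc4a1 (0.58) and Slc26a4 (0.27) higher and Aqp3 (−0.53) and Aqp2 (−0.49) lower of 9 tested, of which Slc26a4 kept its call only without knockout array 2 and Aqp2 only without knockout array 1. None of 8 endothelial or 6 stromal markers passed limma's threshold. No endothelial and 2 stromal ones had an unadjusted p under 0.05, where 19.4% of all tested genes had one. Of the stromal markers 5 were above 0, with a median of 0.17. Their summed signal was 1098 to 1107 in knockout and 950 to 1047 in wild type, without overlap. The endothelial markers had a median of −0.07 and a summed signal of 2390 to 2723 against 2486 to 2617. The log2 changes of the stromal Col3a1 and Acta2 were 0.50 and 0.18, and that of the endothelial Emcn was 0.15. The part of these shifts in the changes of Mep1b, Enpep, Treh and Dpp4 was not tested.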

How the data were processed

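Per the labels' protocols, RNA was taken up in Trizol, and its poly(A) ends primed 1 round of amplification with biotin labelling. The authors deposited linear MAS5 signal intensities from GCOS 1.4, per the submitters' processing notes; the mean of each array was 150.001 with 2% of probe sets trimmed at each end. Without detection calls, dim signals could not be told from background.

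The table has 45101 rows, 64 of them controls, which were left out; by the platform annotation 34945 probe sets name 1 gene, 932 more than 1 and 9160 no gene. Log2 signals were used without an offset. Probe sets whose mean reached the median of all (a geometric mean signal of 41.9) were tested, and the brightest of a gene stood for it. The groups were compared with limma 3.58.1 in R 4.3.3 (lmFit, eBayes with intensity trend, two-sided), and p-values were adjusted by Benjamini-Hochberg over 11620 genes, or over 22519 probe sets, at 0.05. With 3 arrays per group and 4 residual degrees of freedom, the median SE of a log2 change was 0.08 for the 8 genes and 0.12 for all. The fit was also run on simulated arrays with known changes. Their SDs were shuffled among genes, so that run did not carry the intensity trend of the real variances.

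Members and lists were chosen with earlier results of these data known. Text names all members, the called genes of each list (at most 4, by p, or else those of smallest p) and the 3 genes most like each called member. Alternatives changed the offset, normalization, filter, probe set choice, variance model, array weights, station and replicate block, and left out each array. Figures used matplotlib 3.10.9.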

Additional observations from a re-analysis of the deposited data

How the results depend on the processing

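Of 128 values of single member genes under the alternatives, 125 kept their direction and their side of the threshold, 1 lost its call (Treh with median centring, adjusted p = 0.0651) and 2 changed sign. With the probe sets of a gene averaged, Ace was at 0.0498 and Mme at −0.0789; neither was called in any setting, and their probe sets had opposite signs. The count of member genes that rose was 2 with median centring and 3 elsewhere, and the count that fell was 1 throughout. Among probe sets, leaving out 1 array gave 3 to 4 that rose and 1 to 2 that fell; the addition among the rises was Mep1a 1447252_s_at without knockout array 1. The addition among the falls, Dpp4 1441342_at without knockout array 3, was tested there because leaving out its lowest array raised its mean over the filter; on all 6 arrays with no filter it did not pass (adjusted p = 0.0672). Over all genes, 753 were called, against 397 with median centring and 487 without an intensity trend, and 512 to 733 without 1 array. The replicate numbers did not pair the arrays: deviations from the group means correlated at 0.02, 0.03 and −0.03, and with the replicate block 765 genes passed and the same 3 members rose and 1 fell. With 50 added to each signal the log2 change of Mep1b was 1.15 and that of Dpp4 −0.51. Signal over background is unknown here, which limits the dim Dpp4 probe sets most.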
